A study of Rattus norvegicus with 12 samples.

Results

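The genes of cholesterol and fatty acid synthesis were followed in rat (Rattus norvegicus) hippocampus, the brain region needed for spatial memory. They were 32 named genes of 23760 in the files: enzymes of the mevalonate, sterol and fatty acid routes, the SREBP transcription factors and the proteins that hold or release them. They were picked by symbol, and each symbol had 1 row. The series asks what underlies the cognitive impairment seen after prolonged underwater operation, and the labels give 2 groups, NC and AS3h, with 6 hippocampal RNA samples each. The labels state neither what the abbreviations stand for nor the strain, age, treatment or time of sampling, nor whether each sample is a different animal. The p-values therefore reflect how far these 12 samples scatter, which may be technical.

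Animal cells make cholesterol from acetyl-CoA through mevalonate, farnesyl diphosphate, squalene and lanosterol, and fatty acids from the same acetyl-CoA through malonyl-CoA. SREBP proteins switch these genes on: SCAP carries them out of the endoplasmic reticulum when sterols are scarce, and INSIG proteins retain them there when sterols are plentiful. The brain makes nearly all of its own cholesterol, in adulthood largely in glia, because lipoproteins do not cross the blood-brain barrier.

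Library totals over genes ran from 29615243 to 38106489 reads. All 32 genes passed the filter on low values, a normalised value of at least 1 in at least 6 libraries, and had between 1654 (Elovl6) and 169771 (Hmgcs1) reads over the 12 libraries. Levels below are normalised read counts, and a log2 fold change is AS3h over NC on the scale log2(value + 1), with its standard error. Adjusted p-values come from limma with Benjamini-Hochberg adjustment over the 19050 genes tested.

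Of the 32 genes, 15 rose in AS3h hippocampus, 0 fell and 17 did not pass the test. The number that rose was 9 without NC 4 and 5 with a blood marker covariate. Among all 19050 genes tested, 5.04% were called higher and 4.22% lower (9.26% in either direction), whereas 46.9% of the 32 were called higher. The median log2 fold change of the 32 was 0.20, against -0.0043 over all genes, and 27 of the 32 were above 0 where 49.2% of all genes were. The rises were small: the 15 ran from 1.13-fold (Cyp51) to 1.89-fold (Insig1), with a median log2 fold change of 0.26, and 5 of them were at 0.5 or more (1.27% of all genes tested passed with a change of that size). These 5 were Insig1, Dhcr7, Scd, Mvd and Hsd17b7, and they were also the 5 that passed under each of the 24 alternatives. The tissue was analysed in bulk, so more cells of a type that uses these genes and more RNA per cell cannot be told apart. In 8 of the 32 genes all 6 AS3h libraries lay above all 6 NC libraries, an order seen in 3.01% of all genes tested, and in 0 of the 32 did they all lie below (2.04%).

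**Figure D1:**
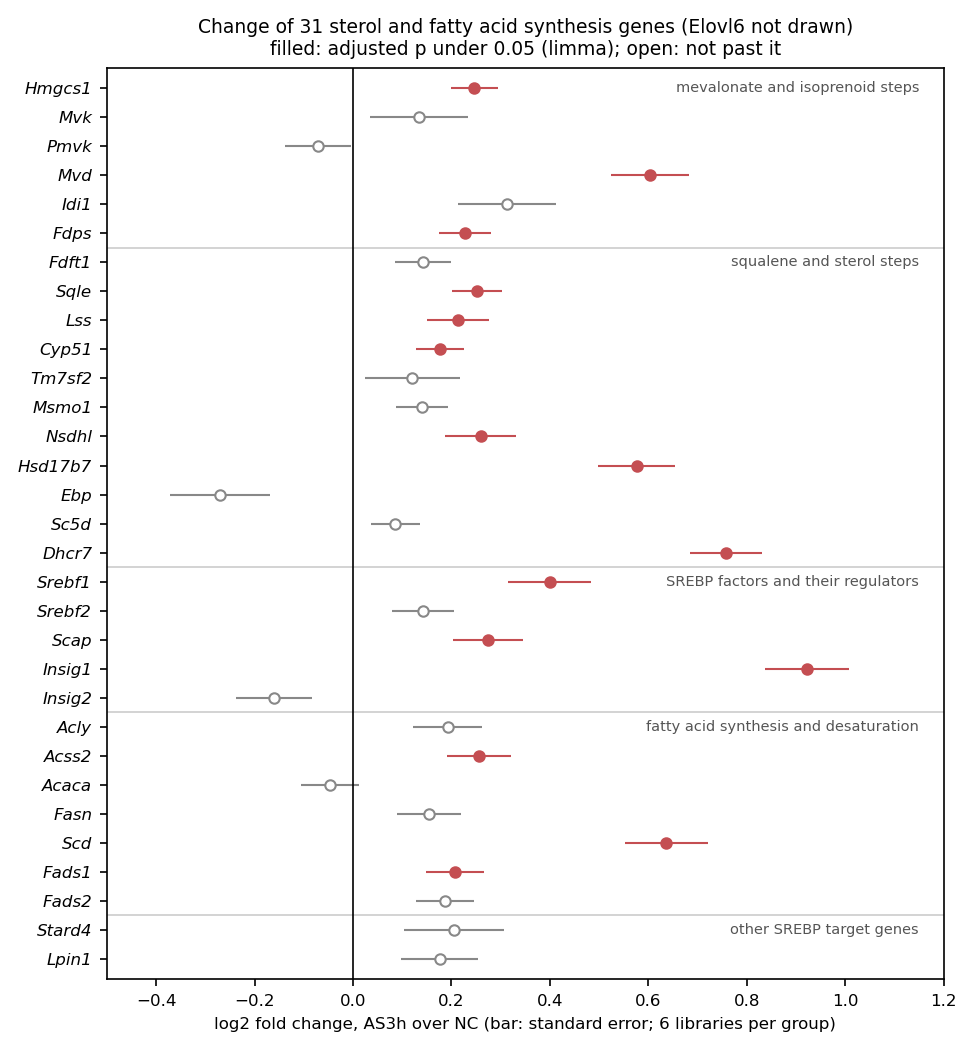
Log2 fold change of 31 of the 32 genes (x axis, AS3h over NC, bars give the standard error, 6 libraries per group), with filled points for an adjusted p under 0.05 and open points for the rest. The 15 filled points all lie to the right of 0, from 0.18 (Cyp51) to 0.92 (Insig1). Elovl6, at -1.55 with a standard error of 1.13, is not drawn.

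The DNA before the start of these 5 genes is shown because they had the largest rises of the 32. The sequences are the 250 bases before the annotated start in RefSeq (build GRCr8, not the build of the files), 5' to 3' on the gene's strand. Capitals mark CCAAT, the box bound by the factor NF-Y, and GGGCGG, the box bound by Sp1, on either strand (ATTGG and CCGCCC on the other). NF-Y and Sp1 are known to act beside SREBP at sterol genes.
Insig1 (chr4:8057770-8058019, minus strand): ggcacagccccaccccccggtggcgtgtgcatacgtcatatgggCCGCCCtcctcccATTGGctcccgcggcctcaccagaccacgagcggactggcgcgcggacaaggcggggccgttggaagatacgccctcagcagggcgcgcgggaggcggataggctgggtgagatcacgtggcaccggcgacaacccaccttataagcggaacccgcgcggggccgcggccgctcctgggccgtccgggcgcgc
Dhcr7 (chr1:208444184-208444433, plus strand): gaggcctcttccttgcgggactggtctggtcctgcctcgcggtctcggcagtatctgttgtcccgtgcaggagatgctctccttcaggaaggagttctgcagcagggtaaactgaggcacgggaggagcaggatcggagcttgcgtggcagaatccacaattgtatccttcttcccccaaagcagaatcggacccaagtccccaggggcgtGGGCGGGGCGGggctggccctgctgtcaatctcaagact
Scd (chr1:253231732-253231981, minus strand): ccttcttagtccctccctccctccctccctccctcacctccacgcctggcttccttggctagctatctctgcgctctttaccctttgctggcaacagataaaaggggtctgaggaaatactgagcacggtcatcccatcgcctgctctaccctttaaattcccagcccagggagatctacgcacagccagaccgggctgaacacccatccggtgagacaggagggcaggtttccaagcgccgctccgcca
Mvd (chr19:67414975-67415224, minus strand): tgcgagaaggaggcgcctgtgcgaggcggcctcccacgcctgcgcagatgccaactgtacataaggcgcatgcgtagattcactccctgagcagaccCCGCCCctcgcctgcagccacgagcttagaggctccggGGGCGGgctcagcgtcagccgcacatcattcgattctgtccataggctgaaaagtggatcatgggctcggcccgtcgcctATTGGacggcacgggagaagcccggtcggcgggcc
Hsd17b7 (chr13:84722755-84723004, minus strand): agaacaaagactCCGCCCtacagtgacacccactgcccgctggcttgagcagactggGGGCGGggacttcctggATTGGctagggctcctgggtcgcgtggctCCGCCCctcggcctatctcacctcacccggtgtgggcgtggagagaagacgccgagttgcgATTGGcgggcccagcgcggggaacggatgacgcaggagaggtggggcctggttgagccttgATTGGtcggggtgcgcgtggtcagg
Insig1 and Mvd held 1 CCAAT box each and Hsd17b7 held 3, while Dhcr7 held 0 and had 2 overlapping GGGCGG boxes. Scd held neither. Sequences were matched for 25 of the 32 genes by symbol (no entry for Pmvk, Fdft1, Sqle, Acaca, Fasn, Elovl6 and Stard4). CCAAT was present in 20 of the 25, or 80%, against 34.02% of all 33469 promoters and 34.2% of the 13235 whose gene was tested. GGGCGG was also present in 20 of the 25, against 30.5% of all promoters and 53.3% of those tested. Of the 14 genes with a sequence that rose, 10 held CCAAT and 12 held GGGCGG, and of the 11 that did not pass, 10 and 8 did. The letters TCACNCCAC, a core of the sterol regulatory element with N for any base, were in 0 of the 25 on either strand and in 0.974% of all promoters. At so low a share, 0 of 25 shows nothing about these genes. The motif counts are descriptions of these windows and do not show binding.

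The SREBP system itself held the largest rise, and 3 of its 5 genes rose, 0 fell and 2 were not called (median log2 fold change 0.27). Insig1, which retains SREBP in the endoplasmic reticulum and is itself an SREBP target, stood at 2050.5 to 2413 in NC (median 2267) and at 3619.5 to 5327 in AS3h (median 4094). The lowest AS3h library, AS3h 6, was above the highest NC library. The log2 fold change was 0.92 ± 0.085 (adjusted p = 4.72e-05), and by p-value Insig1 ranked 6 among all genes tested. Insig2, the related retention protein that is regulated differently, stood at 605.5 to 724 in NC and at 495 to 645 in AS3h. Its groups overlapped, and it did not pass (log2 fold change -0.16 ± 0.077, adjusted p = 0.21). The log2 ratio of Insig1 to Insig2 within a library was 1.75 ± 0.10 in NC and 2.84 ± 0.31 in AS3h (SD, n = 6 each). The difference of 1.08 had a p of 0.00216 by a two-sided exact permutation test, the smallest the design allows (0.00325 adjusted over 3 pairs of related genes, chosen after their values were seen). It is therefore not support separate from the Insig1 change.

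Srebf1, which encodes the SREBP that mainly drives fatty acid genes, ran from 1507 to 1840 in NC (median 1672) and from 1802 to 2569 in AS3h (median 2201). AS3h 3 was the only AS3h library inside the NC range, and AS3h 1 and AS3h 5 were the highest. The log2 fold change was 0.40 ± 0.084 (adjusted p = 0.00866). In the RefSeq annotation Srebf1 overlaps Rai1, so reads may be shared where strand was not used in counting. Rai1 had a log2 fold change of 0.17 (adjusted p = 0.109). In all, 10 of the 32 genes overlap another annotated gene, and for 3 of them an overlapping gene has a row. Insig1, Hmgcs1, Fdps and Acss2 overlap genes without a row, so shared reads could not be examined there. Srebf2, encoding the SREBP that mainly drives cholesterol genes, lay at 7322 to 8351 in NC and 7231 to 9713 in AS3h, and 3 AS3h libraries were above the NC range (log2 fold change 0.14 ± 0.063, adjusted p = 0.175). Srebf2 passed without AS3h 2. The log2 ratio of Srebf1 to Srebf2 was higher in AS3h by 0.26 (means ± SD of -2.21 ± 0.12 and -1.96 ± 0.24, n = 6 each, with overlapping groups). Its exact permutation p was 0.0411, two-sided, and also 0.0411 adjusted over the 3 pairs, chosen after their values were seen. Scap, the escort of both SREBP proteins, was at 4049 to 4754 in NC and 4548 to 6049 in AS3h, with 5 AS3h libraries above the NC range (log2 fold change 0.27 ± 0.07, adjusted p = 0.0251). When libraries were left out singly, Scap failed to pass in 6 of 12 fits.

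**Figure D2:**
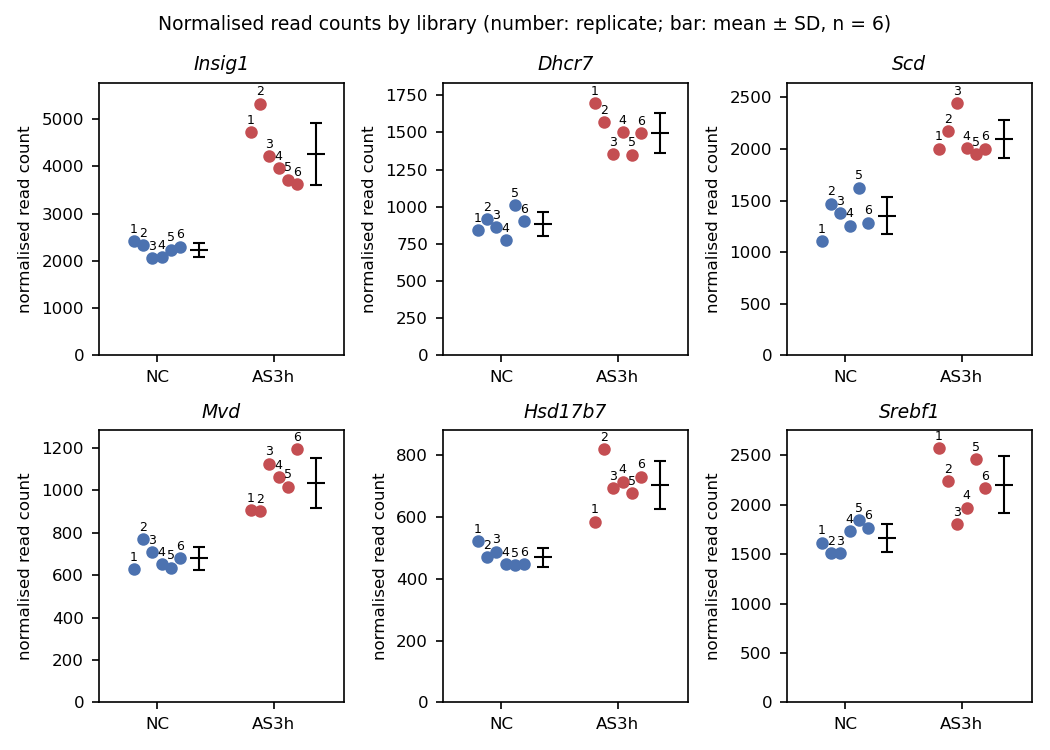
Normalised read counts (y axis, from 0) of 6 of the genes in each of the 12 libraries, labelled by replicate number, with the mean and SD of each group (n = 6). For Insig1, Dhcr7, Scd, Mvd and Hsd17b7 each AS3h point lies above each NC point, and for Srebf1 AS3h 3 falls inside the NC range.

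In the mevalonate and isoprenoid steps 3 of 6 genes rose, 0 fell and 3 were not called; the group had a median log2 fold change of 0.24. Mvd, the decarboxylase that yields isopentenyl diphosphate, rose from 629 to 770 (median 666) in NC to 903 to 1194 (median 1041) in AS3h. The groups did not overlap, and AS3h 6 was highest (log2 fold change 0.60 ± 0.08, adjusted p = 0.00045). Hmgcs1, which condenses acetoacetyl-CoA with acetyl-CoA to HMG-CoA, rose from 11776 to 12950 (median 12418) in NC to 13453 to 15856 (median 14504) in AS3h. It did so without overlap and with little spread, so that a 1.19-fold change passed (log2 fold change 0.25 ± 0.048, adjusted p = 0.00545). Fdps, which makes farnesyl diphosphate, rose from 3326.5 to 3700 in NC to 3808 to 4631 in AS3h, again without overlap (log2 fold change 0.23 ± 0.053, adjusted p = 0.0154).

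Idi1, the isomerase between Mvd and Fdps in the route, had a log2 fold change of 0.31 ± 0.10 and did not pass (adjusted p = 0.0639). It ranged from 1412 to 2005 in NC and from 1519 to 2333 in AS3h. NC 2 was the highest NC library, and AS3h 1, AS3h 5 and AS3h 6 lay inside the NC range; without NC 2 or without AS3h 1 Idi1 passed. Idi1 overlaps Wdr37 in the annotation (log2 fold change of Wdr37 0.065, adjusted p = 0.45). The 2 kinases of the route were not called: Mvk had a log2 fold change of 0.13 ± 0.10 (adjusted p = 0.442) and Pmvk one of -0.07 ± 0.067 (adjusted p = 0.556).

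Of the 11 squalene and sterol genes 6 rose, 0 fell and 5 were not called, at a median log2 fold change of 0.18. Dhcr7, the reductase of the last step to cholesterol in the branch through 7-dehydrocholesterol, rose from 773 to 1009 (median 882) in NC to 1350 to 1700 (median 1498) in AS3h. The gap between the groups was wider than the range within NC, and AS3h 1 was highest (log2 fold change 0.76 ± 0.073, adjusted p = 5.09e-05). Hsd17b7, the ketoreductase that helps remove the methyl groups of lanosterol, rose from 444 to 521 (median 458) to 584 to 819 (median 703), without overlap (log2 fold change 0.58 ± 0.079, adjusted p = 0.00057).

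Sqle, the squalene epoxidase and a control point of the route, lay at 2495 to 2915 in NC (median 2604) and 2895.5 to 3349 in AS3h (median 3139). In all, 5 AS3h libraries were above the NC range and AS3h 1 was just below its top (log2 fold change 0.25 ± 0.051, adjusted p = 0.00723). Nsdhl, a dehydrogenase of the demethylation complex, lay at 1186 to 1355 in NC and 1260 to 1691 in AS3h (log2 fold change 0.26 ± 0.071, adjusted p = 0.0338). Cyp51, the lanosterol demethylase, lay at 6642 to 7611 in NC and 7615 to 8629.5 in AS3h, so that the groups touched without overlapping (log2 fold change 0.18 ± 0.048, adjusted p = 0.0338). Lss, which closes the sterol rings, lay at 1804 to 2256 in NC and 2208 to 2656 in AS3h, with 3 AS3h libraries above the NC range (log2 fold change 0.21 ± 0.063, adjusted p = 0.0455). Nsdhl, Cyp51 and Lss were near the threshold and failed to pass in 9, 8 and 10 of the 12 fits that left out a single library.

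The 5 sterol genes that did not pass were Fdft1, which makes squalene, Msmo1, the methylsterol oxidase, Sc5d, the C5 desaturase just before Dhcr7, Tm7sf2, a sterol reductase, and Ebp, the sterol isomerase. In that order the first 4 were at 0.14, 0.14, 0.086 and 0.12 on the log2 scale, none past the threshold (adjusted p 0.136, 0.113, 0.303 and 0.477, limma). Ebp was the sterol gene below 0: it lay at 289 to 402 in NC (median 353) and 250 to 343 in AS3h (median 291), with overlapping groups (log2 fold change -0.27 ± 0.10, adjusted p = 0.109).

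Among the 8 fatty acid genes 3 rose, 0 fell and 5 were not called, at a median log2 fold change of 0.19. Scd, a stearoyl-CoA desaturase that makes oleic acid, rose from 1107 to 1624 (median 1333) in NC to 1949 to 2448 (median 2005) in AS3h. The groups did not overlap, and AS3h 3 was highest (log2 fold change 0.64 ± 0.084, adjusted p = 0.000467). The file holds 3 related desaturase rows that may share reads with Scd. Scd2 held far more reads, at mean normalised counts of 1.077e+05 in NC and 1.142e+05 in AS3h, against 1354 and 2097 for Scd. Scd2 had a log2 fold change of 0.09 and did not pass (adjusted p = 0.399), so the rise covers a minor part of the desaturase reads. Whether Scd2 reads were counted as Scd was not tested. Scd4 had a log2 fold change of 1.17 (adjusted p = 0.507) at mean normalised counts of 11.35 in NC and 22.3 in AS3h, and LOC681458 one of -0.45 (adjusted p = 0.534). The log2 ratio of Scd to Scd2 was higher in AS3h by 0.55 (means ± SD of -6.32 ± 0.11 and -5.77 ± 0.17, n = 6 each). Its exact permutation p was 0.00216, two-sided, and 0.00325 adjusted over the 3 pairs. The pair was chosen after its values were seen, so this p is not support separate from the Scd change.

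Acss2, which makes acetyl-CoA from acetate, lay at 1949 to 2396 in NC and 2390 to 2978 in AS3h, with 5 AS3h libraries above the NC range (log2 fold change 0.26 ± 0.065, adjusted p = 0.0244). Acss2 failed to pass without NC 4, without AS3h 4 and without AS3h 6. Fads1, the delta-5 desaturase of polyunsaturated fatty acids, lay at 6210 to 7399 in NC and 7295.5 to 8615 in AS3h (log2 fold change 0.21 ± 0.059, adjusted p = 0.0403), and failed to pass in 7 of the 12 fits without a single library. Its neighbour in function Fads2, the delta-6 desaturase, was at a log2 fold change of 0.19 ± 0.059 and did not pass (adjusted p = 0.0616), although 5 AS3h libraries were above the NC range. Fads2 passed with limma-voom and without AS3h 2.

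The enzymes at the head of fatty acid synthesis did not pass in the main fit. Acly, which makes cytosolic acetyl-CoA from citrate, was at a log2 fold change of 0.19 ± 0.07 (adjusted p = 0.0997), and Fasn, the fatty acid synthase, at 0.15 ± 0.064 (adjusted p = 0.148). Acly had 5 AS3h libraries above the NC range and passed without AS3h 1. Acaca, the carboxylase that makes malonyl-CoA, was at -0.05 ± 0.058 (adjusted p = 0.67), with 0 AS3h libraries above the NC range. Elovl6, an elongase of saturated fatty acids, was listed at 127, 152, 157, 168, 176 and 182 in NC and at 0, 106, 108, 129, 131 and 135 in AS3h, the 0 being AS3h 6. With that library the log2 fold change was -1.55 ± 1.13 (adjusted p = 0.44), and without it -0.39 (adjusted p = 0.0755). In all, 21 genes of the files were at 0 in 1 library and at 50 or more in the other 11, of which AS3h 6 held 5 and AS3h 3 held 7.

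The other 2 genes, known SREBP targets, had log2 fold changes that did not pass. They were Stard4, a cholesterol carrier within the cell (0.20 ± 0.10, adjusted p = 0.226), and Lpin1, a phosphatidate phosphatase and coregulator (0.18 ± 0.078, adjusted p = 0.176). Each had 4 AS3h libraries above the NC range.

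**Figure D3:**
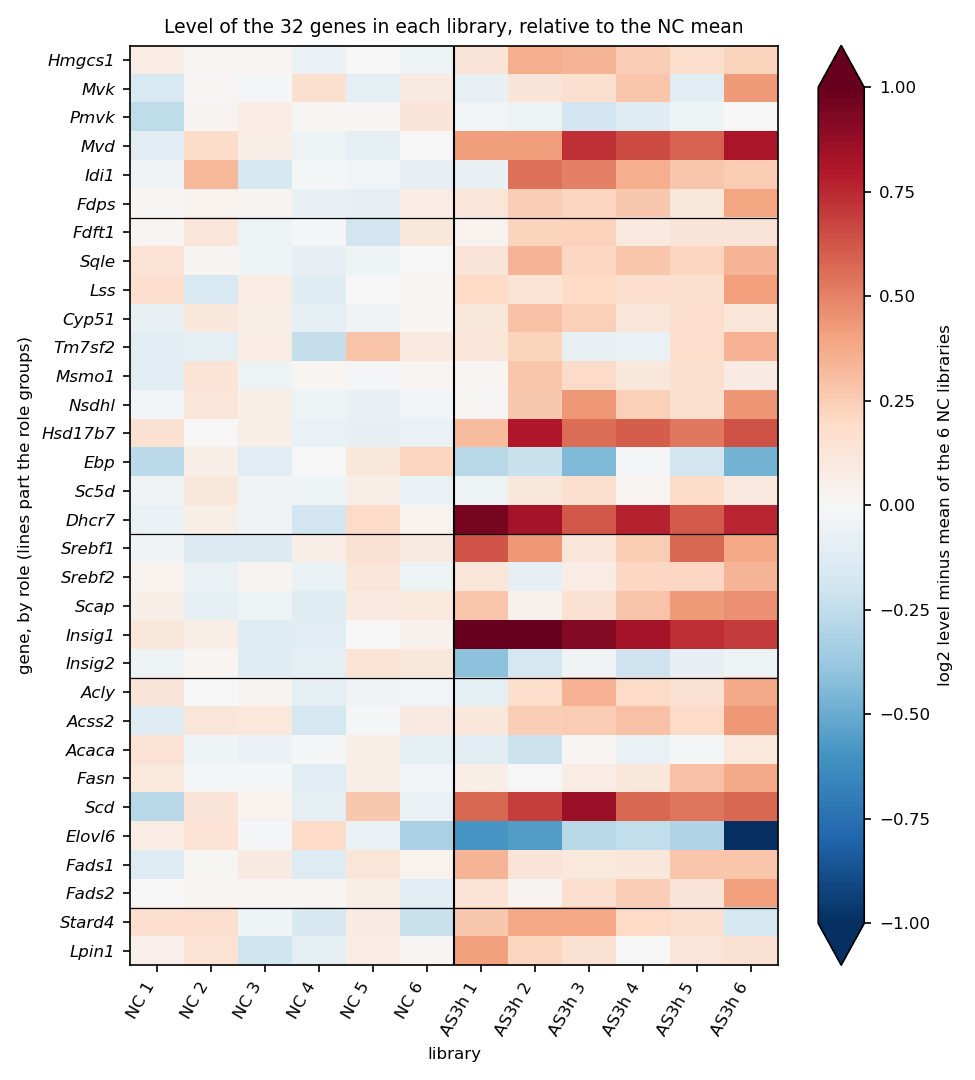
Log2 level of the 32 genes (rows, grouped by role) in the 12 libraries (columns), minus the mean of the 6 NC libraries, with colours saturating at 1 in either direction. The Insig1, Dhcr7, Scd, Mvd and Hsd17b7 rows are red in all 6 AS3h columns; Ebp and Insig2 are mostly blue there, and Elovl6 in AS3h 6 is at 0 reads.

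The AS3h libraries did not share 1 order across the genes. Among the 15 that rose, AS3h 1 was the lowest AS3h library for 6 (Hmgcs1, Sqle, Cyp51, Nsdhl, Hsd17b7 and Acss2) and the highest for Dhcr7, Srebf1 and Fads1. AS3h 2 was the highest for Hmgcs1, Sqle, Cyp51, Hsd17b7 and Insig1 and the lowest for Mvd, Lss and Scap. AS3h 6 was the highest for 6 (Mvd, Fdps, Lss, Nsdhl, Scap and Acss2) and the lowest for Insig1, while AS3h 4 was at neither end for any. Averaged over the 31 genes other than Elovl6, with each gene centred on its mean over the 12 libraries, the log2 level ran from -0.19 (NC 4) to -0.073 (NC 2) in NC and from 0.056 (AS3h 1) to 0.18 (AS3h 6) in AS3h. The averages of the squalene and sterol and SREBP groups likewise did not overlap between NC and AS3h. The fatty acid average did not overlap either, but it covers 7 genes and leaves out Elovl6. Elovl6 had a log2 fold change below 0 (-1.55 ± 1.13, not past the threshold) and was at 0 in AS3h 6. An average with Elovl6 is not given, so the separation is shown for those 7 genes only. In the mevalonate group AS3h 1, at -0.04, lay below NC 2, at -0.019.

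**Figure D4:**
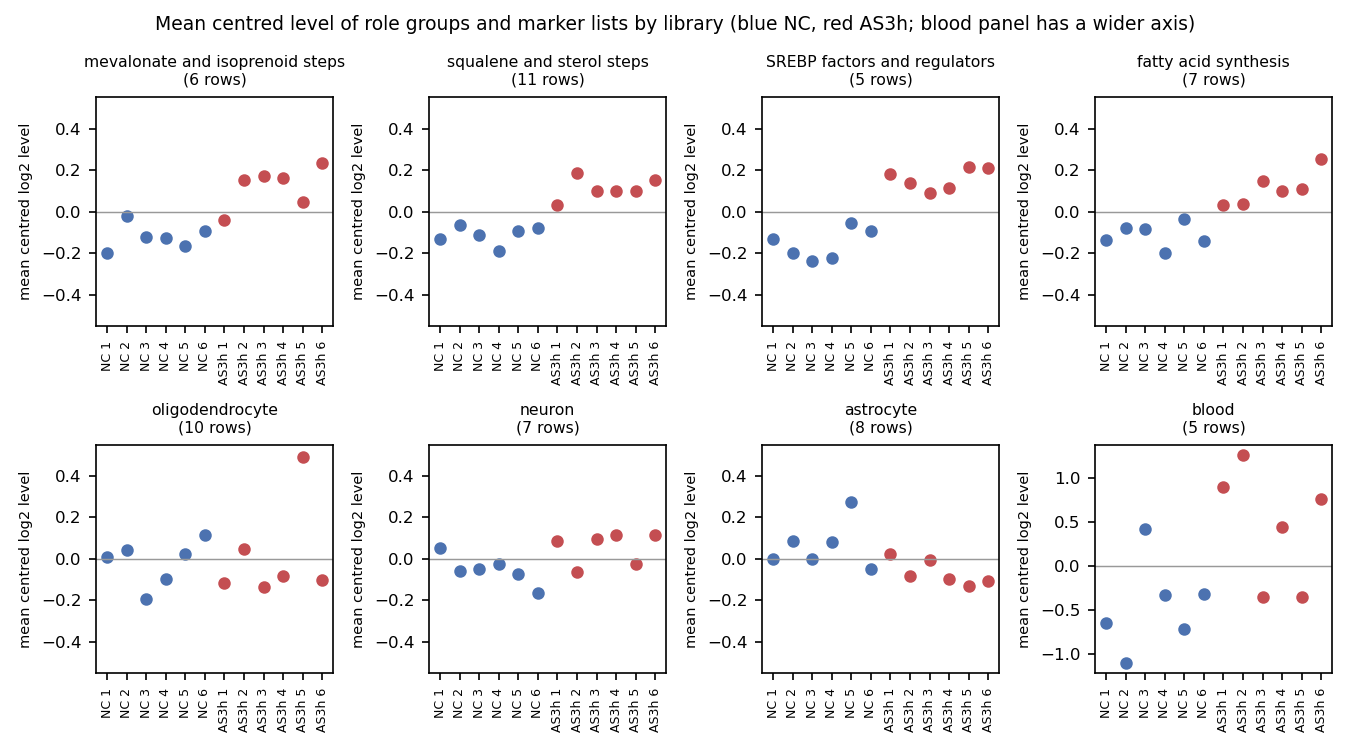
Mean centred log2 level (y axis) of 4 role groups and 4 cell type marker lists in each library (x axis, blue NC, red AS3h). In the sterol, SREBP and fatty acid panels (the last of 7 genes, without Elovl6) all AS3h points lie above all NC points. The oligodendrocyte panel overlaps, with AS3h 5 highest at 0.49, and the blood panel has a wider axis.

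Other genes of the pathway were taken from companion lists, set against the 5.04% of all genes called higher and 4.22% lower. The lists were written with earlier results of these data known, so their shares are descriptions only. Of 13 further sterol synthesis and SREBP processing genes 4 rose (30.8%), 0 fell and 9 did not pass (median log2 fold change 0.11). Among them were Acat1, a mitochondrial thiolase (2501 to 2916 in NC, 2769 to 3341 in AS3h; log2 fold change 0.23 ± 0.054, adjusted p = 0.0152), and Dhdds, a subunit of the dolichol-making prenyltransferase (1589 to 1919 in NC, 1874 to 2098 in AS3h; 0.18 ± 0.054, adjusted p = 0.0494). For each of these, 5 AS3h libraries were above the NC range. Neither is a sterol-forming step, so the 30.8% is not a share of sterol enzymes alone. In this list Mbtps1 and Mbtps2, the proteases that cut SREBP free in the Golgi, did not pass: Mbtps1 was at 0.04 (adjusted p = 0.75) and Mbtps2 at -0.05 (adjusted p = 0.667). Without AS3h 4 and AS3h 5, 1 of the 13 rose.

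Of 24 sterol transport, storage and turnover genes 0 rose, 1 fell and 23 did not pass (median 0.066). At 0% higher and 4.17% lower, against 5.04% and 4.22% of all genes, the counts show nothing about that list. Unadjusted, 7 of the 24 had a p under 0.05 in limma, as did 24.9% of all genes tested, and limma-voom also called 0 higher. Cyp7b1, the oxysterol hydroxylase, fell from 1344 to 1947 in NC to 1113 to 1305 in AS3h, without overlap (log2 fold change -0.36 ± 0.078, adjusted p = 0.011). Of 31 other fatty acid and acyl-CoA genes 2 rose, 1 fell and 28 did not pass (median -3.4e-06). These are 6.45% higher and 3.23% lower, near the 5.04% and 4.22% of all genes, so the counts show nothing about the list. Thrsp, a regulator of lipogenesis, rose from 633 to 915 in NC to 1026 to 1607 in AS3h (log2 fold change 0.61 ± 0.11, adjusted p = 0.00426), and Acsl3, an acyl-CoA synthetase of lipid droplets, from 8282 to 10919 in NC to 12067 to 13121 in AS3h (0.35 ± 0.062, adjusted p = 0.00341). Both did so without overlap. Gpam, the first acyltransferase of glycerolipid synthesis, fell (log2 fold change -0.25 ± 0.061, adjusted p = 0.0188). Pathway genes outside these lists were not analysed here.

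Markers of several cell types were set beside these genes, and their part in the result was not tested beyond the fits given here. Among all genes tested, 5.04% were called higher and 4.22% lower. Lists this short with 0 or 1 row called cannot be told from those shares. Blood markers had 0 of 5 rows called, all with log2 fold changes above 0, and their summed level ran from 5904 to 14542 in NC and 8042 to 23178 in AS3h. With the mean blood marker level as a covariate, 5 of the 32 genes rose (Insig1, Dhcr7, Scd, Mvd and Hsd17b7) and 1.11% of all genes did; the median log2 fold change of the 32 was 0.20 as before, and Hmgcs1 (0.25, adjusted p = 0.0613) and Srebf1 (0.36, adjusted p = 0.109) were among the 10 that did not pass. Neuron markers had 1 of 7 called higher, the glutamate transporter gene Slc17a7 (log2 fold change 0.27, adjusted p = 0.0318), at summed levels of 189144 to 219500 in NC and 207077 to 244363 in AS3h; with their mean as a covariate 8 of the 32 rose, at a median of 0.21, and 2.35% of all genes did. Oligodendrocyte markers had 1 of 10 called, Ermn, lower (-0.45, adjusted p = 0.026), and summed to 351716 to 445465 in NC and 394479 to 631267 in AS3h, where AS3h 5 was highest. With their mean as a covariate the same 15 of the 32 rose, as did 5.19% of all genes.

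Astrocyte markers had 0 of 8 called, all below 0 in log2 fold change (125383 to 147667 in NC and 118801 to 130181 in AS3h). Microglial markers had 2 of 6 lower, Cx3cr1 and Gpr34 (4989 to 6398 and 4472 to 5607). Endothelial markers had 3 of 5 lower, Slco1a4, Abcb1a and Flt1 (6856 to 8947 and 5048 to 5499). Cldn5 was at 0 in 2 NC and 4 AS3h libraries. The microglial and endothelial counts were 33.3% and 60% lower, against 4.22% of all genes tested. Choroid plexus markers had 0 of 7 tested rows called. They summed to 133 to 480 in NC and 172 to 7813 in AS3h, highest in AS3h 5, with Otx2 at 0 in 4 NC and 3 AS3h libraries. With their mean as a covariate 12 of the 32 rose, as did 3.32% of all genes. Without AS3h 4 and AS3h 5 together, 9 of the 32 rose, with a median log2 fold change of 0.22, and 2.38% of all genes did.

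**Figure D5:**
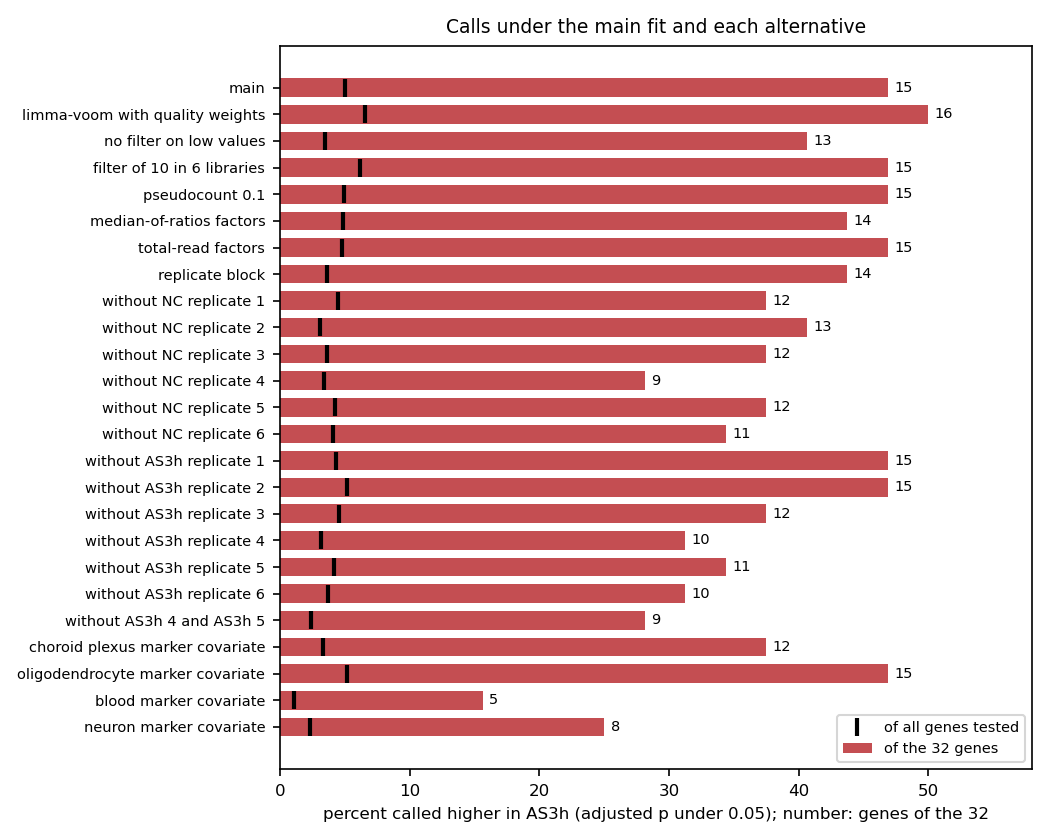
Percent of the 32 genes (bars, with their number) and of all genes tested (black ticks) called higher in AS3h under the main fit and each alternative. The bars run from 5 genes with the blood marker covariate to 16 with limma-voom (6.55% of all genes), and each lies above its tick.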

How the data were processed

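RNA sequencing measured gene expression in 12 rat hippocampal samples, whose titles give group and replicate. Per the labels' protocols, strand-specific libraries were made from total RNA. FastQC 0.11.5, STAR and build mRatBN7.2 are listed, without roles, per the submitters' processing notes. How reads were counted, with which strand setting, annotation or filter, is not given in the sources used. The deposited values are log2 values by the authors: the values fit log2(reads / library factor + 1). Whole reads were recovered in 100% of values (within 0.02 read), and gave library totals. No library was a duplicate: the most alike replicates had a chi-square over degrees of freedom of 11.4.

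The deposited log2 values were fitted with limma 3.58.1 in R 4.3.3 (robust empirical Bayes, trend, group only). Genes were kept with a normalised value of at least 1 in at least 6 libraries, and calls were made at a Benjamini-Hochberg adjusted p under 0.05. The pseudocount of 1 understates changes of low genes. For ratios of related genes, a two-sided exact permutation test was used. Library totals ran from 30128112 to 38106489 reads in NC and from 29615243 to 36947557 in AS3h (exact permutation p = 0.147).

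The members and lists were chosen with earlier results of these data known. The rule for named genes gave each member, and each companion gene past the threshold. Some companion genes are counted but not reported here by name. Alternatives were limma-voom with quality weights, other filters, a pseudocount of 0.1, other library factors, a replicate block, leaving out libraries, and choroid plexus and oligodendrocyte covariates; blood and neuron covariates were added after the data were seen. The fitting step was tested on simulated data, with a spread that was set and not taken from these libraries. It recovered 58% of 1.25-fold changes and 100% of 1.5-fold changes, so small changes can be missed. Promoters came from RefSeq (GRCr8). Plots used Python 3.11.15 and matplotlib 3.10.9.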

Additional observations from a re-analysis of the deposited data

Results flagged for a closer look

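In 6 of 80 gene and group combinations examined (the 32 genes and 8 companion genes that changed, in each group of 6), 1 library stood apart from the other 5 by more than Dixon's critical gap for 6 values. Chance gives such a gap in about 1 of 20 groups. Pmvk was at 744 in NC 1, against 894.5 to 970 in the other NC libraries. Idi1 was at 2005 in NC 2, against 1412 to 1586. Lss was at 2656 in AS3h 6, against 2208 to 2305 in the other AS3h libraries. Elovl6 was at 0 in AS3h 6, against 106 to 135. Fads2 was at 2155 in NC 6, against 2324 to 2428, and Gpam was at 1342 in NC 6, against 1601 to 1723.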

How the results depend on the processing

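Of the 15 genes called higher, Insig1, Dhcr7, Scd, Mvd and Hsd17b7 passed under all 24 alternatives, and none of the 32 was called lower under any of them by limma or limma-voom (unadjusted, 24 of the 32 and 24.9% of all genes had a p under 0.05 in limma). Of 768 gene and alternative combinations, 685 kept direction and side of the threshold, 74 lost a call, 7 gained one and 2 changed sign, both uncalled (Acaca at 0.022 with the blood covariate and Pmvk at 0.020 with the neuron covariate). Leaving out 1 library gave 9 (without NC 4) to 15 members called higher and 0 to 0 lower; 585 to 980 of all genes higher and 445 to 822 lower, lowest without NC 2; 2 to 4 further sterol genes higher; 0 to 1 sterol transport genes higher; and 1 to 4 further fatty acid genes lower. Without NC 2, 13 members rose, and without AS3h 4, 10 did, with 607 of all genes higher and 502 lower. Without AS3h 4 and AS3h 5 the counts were 9 members, 454 of all genes higher and 406 lower, 1 further sterol gene higher and 2 further fatty acid genes lower. With the blood covariate they were 5 members, 212 and 169 of all genes, and 0 in each companion list in each direction. With the neuron covariate they were 8 members, 447 and 343 of all genes, 0 further sterol genes higher and 0 sterol transport genes lower. With the choroid plexus covariate 632 of all genes were higher. Further fatty acid genes called lower numbered 2 with limma-voom and 2 with the oligodendrocyte covariate. With the replicate number as a block (replicate block), 14 members rose, Lss and Fads1 losing and Idi1 gaining a call, 691 of all genes rose and 605 fell, and 1 sterol transport gene rose. Same-numbered libraries' deviations correlated at -0.015 to 0.027 and the labels give the numbers no meaning, so the libraries were not treated as paired. The cause of these shifts was not tested.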
